A study of Arabidopsis thaliana with 9 samples.

Results

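The Casparian strip genes examined here were 9 genes, among them CASP1, CASP2, CASP4, CASP5, MYB36, ESB1, SGN1 and SGN3, taken by their locus identifiers from 28775 loci counted in Arabidopsis roots. The 3 genotypes, with 3 mRNA libraries each, were Col-0 (wild type), 35S:miR858 (a line overexpressing the microRNA miR858) and 35S:rMYB83 (a line overexpressing a form of MYB83 that miR858 does not act on). All plants were 2 weeks old, the tissue was root, and growth was at 24 °C with 16 h of light and 8 h of dark. The 35S promoter is active in most cell types, so neither transgene was limited to the endodermis. How many plants made up a library, and whether each genotype was 1 transformed line, is not stated in the sources used here. The labels do not say whether the 3 libraries of a genotype came from separate batches of plants, so each p-value reflects the spread among libraries, which may be technical. Whole roots were sequenced, so more endodermal cells and more RNA per endodermal cell cannot be told apart.

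The Casparian strip is a belt of lignin in the wall around each endodermal cell, which seals the space between cells so that water and ions must cross a membrane to reach the vascular tissue. CASP proteins are membrane proteins that form a scaffold where the belt is laid down, and peroxidases and dirigent-like proteins recruited there polymerise the lignin. MYB36 switches on this set of genes in the differentiating endodermis. SGN3 is a receptor kinase at the cell surface that senses peptides leaking through gaps in the strip, and SGN1 is a cytoplasmic kinase that acts after it.

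Both transgenes touch MYB factors, so the sequences linking them to the Casparian strip genes are shown first. The mature miR858a (RefSeq, TAIR10.1, chr1:26773695-26773715, minus strand) is given 5′ to 3′ with its seed, bases 2 to 8, in capitals. The best gapless alignment in each transcript follows, written 5′ to 3′ with the bases that form Watson-Crick pairs in capitals. Each mismatch cost 1 and each G:U pair 0.5, doubled at positions 2 to 13 from the 5′ end of the miRNA. MYB83, a known target of miR858, is set beside MYB36 and beside MYB68, MYB84 and MYB87, relatives of MYB36 in the partner list described later.
miR858a: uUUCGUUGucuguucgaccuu
MYB83: cAGGTaGAACAGACAACGAgA
MYB84: cgGGaCGAACAGACAACGAtA
MYB87: cgGGaaGAACAGACAACGAcA
MYB68: cgGGaaGAACcGACAACGAtA
MYB36: gtGcTtGAtCAGACAACtgAg

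The MYB83 alignment (chr3:2577626-2577646, minus strand) had 18 paired bases of 21 and a penalty of 3, reached by 0.0255% of 27440 protein-coding transcripts. The MYB36 alignment (chr5:23336317-23336337, plus strand, coding) had 13 paired bases and a penalty of 8.5, which 11.1% of transcripts reached. MYB84 (chr3:18428460-18428480, plus strand) scored 4.5 with 17 paired bases, MYB87 (chr4:17759009-17759029, minus strand) 5.5 with 16, and MYB68 (chr5:26323553-26323573, plus strand) 7.5 with 15. These penalties were reached by 0.0838%, 0.317% and 3.28% of transcripts. The other 8 Casparian strip genes scored 9 to 11.5, and 19.97% to 87.6% of transcripts scored as low. A low score is a description of letters and does not show that a transcript is cut.

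MYB83 is known to bind a 7-letter element, the secondary wall MYB-responsive element, which reads ACC, then A or T, then A, then A or C, and last C or T, in 8 forms. Both strands were searched in the 250 bases before each gene start, where 29.4% of 27443 protein-coding genes had at least 1 match. Among the Casparian strip genes 7 of 9 had a match, with 2 in SGN3, 1 in CASP1, CASP4, CASP5, ESB1 and SGN1, and none in CASP2 or MYB36. The upstream sequences of 4 genes are shown with matches in capitals. CASP2 kept a nearly fixed ratio of counts to CASP1, as described later, CASP4 had the same form of match as CASP1, and SGN1 was higher in both lines.
CASP1: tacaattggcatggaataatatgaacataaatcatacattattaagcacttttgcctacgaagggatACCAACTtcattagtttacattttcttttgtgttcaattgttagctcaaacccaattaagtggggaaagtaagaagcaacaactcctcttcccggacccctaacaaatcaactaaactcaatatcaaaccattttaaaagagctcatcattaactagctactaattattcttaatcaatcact
CASP2: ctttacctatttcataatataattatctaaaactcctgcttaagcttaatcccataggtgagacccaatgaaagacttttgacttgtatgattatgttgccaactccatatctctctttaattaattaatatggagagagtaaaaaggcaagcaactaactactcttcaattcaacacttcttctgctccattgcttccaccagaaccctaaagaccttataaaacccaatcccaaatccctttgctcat
CASP4: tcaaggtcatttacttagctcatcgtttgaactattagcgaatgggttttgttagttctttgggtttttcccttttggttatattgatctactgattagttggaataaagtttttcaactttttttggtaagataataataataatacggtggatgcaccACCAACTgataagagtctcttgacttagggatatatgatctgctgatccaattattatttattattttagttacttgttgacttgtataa
SGN1: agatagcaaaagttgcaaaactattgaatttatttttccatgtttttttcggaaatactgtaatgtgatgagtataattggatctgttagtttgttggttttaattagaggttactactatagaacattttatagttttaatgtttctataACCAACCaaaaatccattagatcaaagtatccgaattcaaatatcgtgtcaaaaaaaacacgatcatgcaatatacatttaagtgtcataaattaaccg

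These lie at chr2:15160800-15161049 (minus strand) for CASP1, chr3:3637928-3638177 (plus) for CASP2, chr5:1876884-1877133 (plus) for CASP4 and chr1:22726191-22726440 (minus) for SGN1, in TAIR10.1. CASP1 and CASP4 had the same form, ACCAACT, starting 183 and 90 bases before the gene start, and SGN1 had ACCAACC at 99 bases. CASP2 had none of the 8 forms. Whether a match bears on the level of a gene was not tested. The CASP2 and CASP4 windows had the run ttgacttgtat in common, 11 bases long, the longest shared by any pair of CASP genes. Among the windows of all 9 genes every pair shared a run of at least 7 bases, and the longest was 14, between MYB36 and SGN1. How long a run unrelated windows share was not computed. A match by itself is not a binding site, and the lack of one says only that these letters are not in this window.

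The libraries held 5313656 to 10648857 gene counts. CPM values below, counts scaled to the library total, use totals scaled by the trimmed mean of M-values, a method that sets aside the most changed genes. The labels held for both transgenes. MYB83 stood at 98.0 to 134 CPM in 35S:rMYB83, 0.723 to 2.17 CPM in Col-0 and 1.51 to 1.56 CPM in 35S:miR858. Its values in 35S:miR858 thus lay within the Col-0 range. The miR858a precursor had 120, 200 and 227 counts in 35S:miR858 and 0 in the others. Markers of green shoot tissue (10 genes) took 0.281% of counts in Col-0 replicate 1 and 0.474% in 35S:rMYB83 replicate 1, against 0.0373% to 0.124% elsewhere. Col-0 replicate 1 also stood apart for the Casparian strip genes. It had the lowest CPM of all 9 libraries for 8 of the 8 genes that could be tested, and its summed CASP level was 95.1 CPM against 158 to 259 in the others. The library 35S:miR858 replicate 2 had the highest value for 7 of these 8 genes. Where leaving out Col-0 replicate 1 moved a value of a Casparian strip gene widely or turned its sign, the value without it is given.

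**Figure D1:**
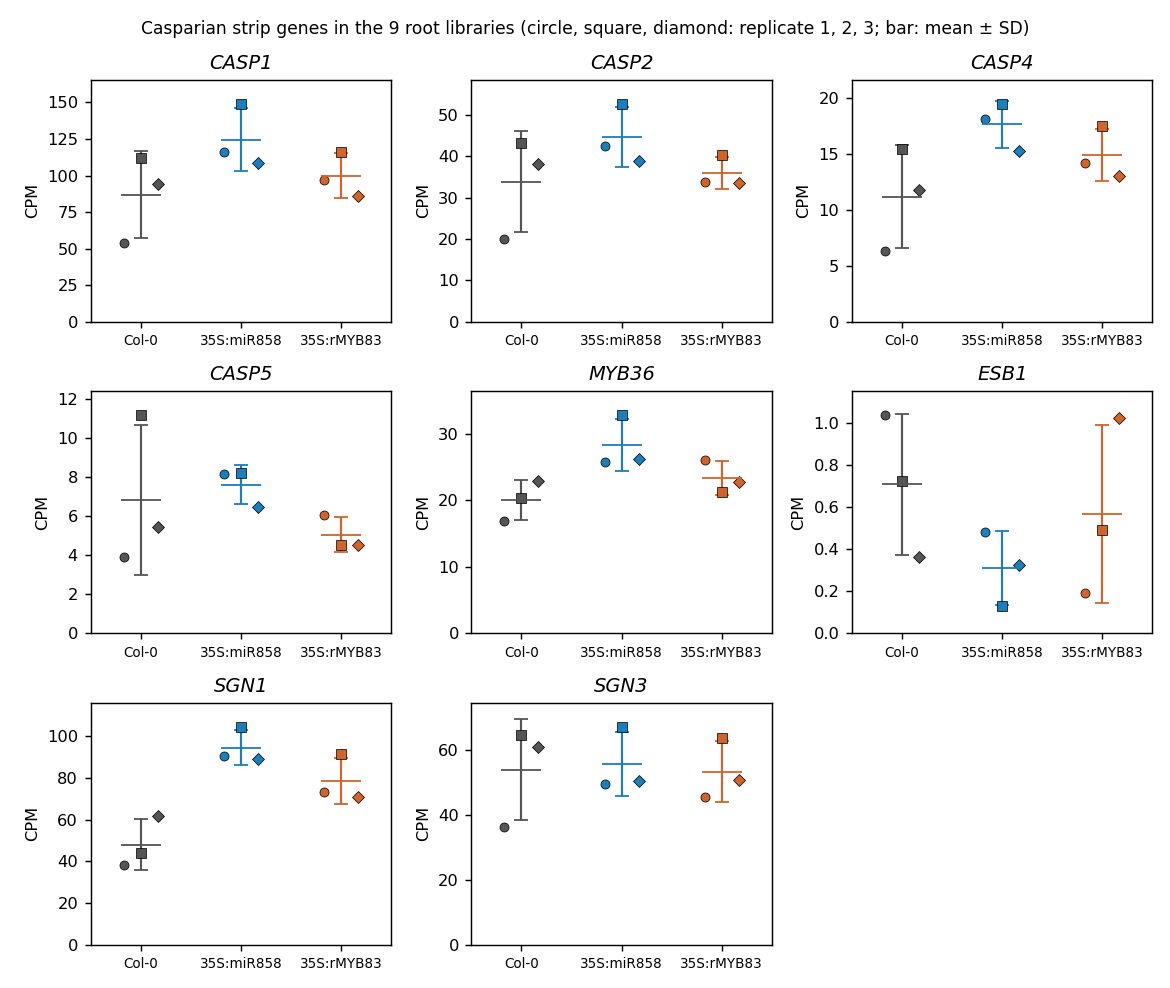
Level of 8 of the Casparian strip genes in CPM (vertical axes, each from 0) in the 9 root libraries, by genotype. Circles, squares and diamonds are replicates 1, 2 and 3, and bars are the mean ± SD. SGN1 is the one gene for which all libraries of both lines lie above every Col-0 library, and the circle of Col-0 is the lowest point in each panel but that of ESB1.

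In 35S:miR858 against Col-0, 2 Casparian strip genes rose, the kinase gene SGN1 and the regulator MYB36. None fell, and 6 did not pass. The threshold was an adjusted p (Benjamini-Hochberg) under 0.05 in edgeR's quasi-likelihood F test, fitted to the 9 libraries together. It called 25.1% of 19496 genes in this comparison, 11.6% higher and 13.5% lower, so 2 of 8 is near the share among all genes in this fit. The count was 1 to 3 when 1 library was left out, 3 with a replicate block and 5 with a green shoot covariate. Calls over all genes moved as well, from 4900 in this fit to between 3468 and 5912 over the alternatives. With library totals the median of all genes shifted by -0.14 on the log2 scale in this comparison and by -0.10 in 35S:rMYB83 against Col-0, and the share of calls that were higher went from 46.3% to 24.6% and from 40.8% to 23.3%. The groups did not overlap for 2 of the 8, both higher, where 40.6% of all genes had groups that did not overlap (18.8% higher, 21.8% lower). All 8 log2 fold changes were above 0, with a median of 0.51 against -0.02 over all genes tested. SGN3 turned negative with library totals in place of TMM (-0.09), without 35S:miR858 replicate 2 (-0.11) and without Col-0 replicate 1 (-0.17), and CASP5 without Col-0 replicate 1 (-0.14). In 35S:rMYB83 against Col-0, 1 of 8 rose, again SGN1, where 16.4% of genes were called, 6.7% higher and 9.73% lower. The groups did not overlap for SGN1 alone, against 34% of all genes. There 6 of 8 log2 fold changes were positive and the median was 0.21 against 0.01 over all genes. Without Col-0 replicate 1, or without both libraries rich in green shoot markers, 4 of 8 were positive, with CASP1 and CASP2 turned negative, and without Col-0 replicate 2 all 8 were. Both comparisons use the same Col-0 libraries, so their values are not independent of each other.

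Between the lines, 35S:rMYB83 against 35S:miR858, edgeR called 0 of the 8 genes at the adjusted threshold, and 0 had an unadjusted p under 0.05. DESeq2 also called 0, and edgeR called 4.05% of all genes, 2.5% higher and 1.54% lower. All 8 log2 fold changes lay below 0, with a median of -0.27 against 0.00 over all genes. Without 35S:miR858 replicate 2, the library highest in most of them, 2 of the 8 were above 0, and without 35S:rMYB83 replicate 1 there was 1. CASP5 was the only one of the 8 whose groups did not overlap, where 24.8% of all genes had groups that did not overlap. The 95% intervals of the 8 differences are wide and run from -1.41 to 0.44 on the log2 scale, so the lines are not shown to be alike.

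**Figure D2:**
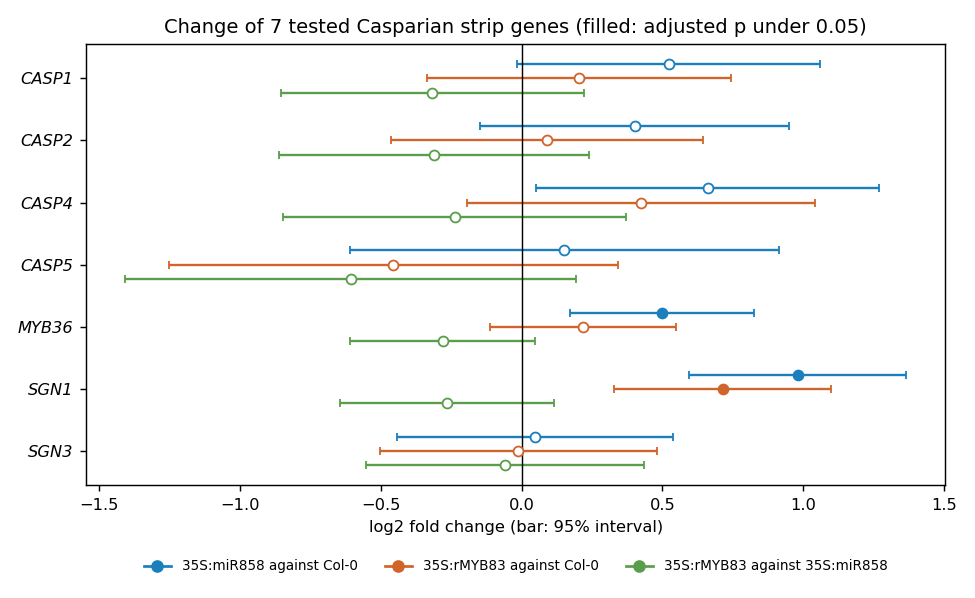
Log2 fold change (horizontal axis) of 7 tested Casparian strip genes in the 3 comparisons, with 95% intervals as bars. Filled points have an adjusted p under 0.05. The filled points are SGN1 in both lines and MYB36 in 35S:miR858, and all green points, 35S:rMYB83 against 35S:miR858, lie below 0.

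CASP1 (AT2G36100, chr2:15159591-15160799, minus strand, 3 exons) encodes a membrane scaffold protein of the strip. It stood at 53.9, 112 and 94.4 CPM in Col-0, 116, 149 and 108 CPM in 35S:miR858, and 97.1, 116 and 86.2 CPM in 35S:rMYB83. Col-0 replicate 1 was the low library, and replicate 2 of Col-0 lay within the range of 35S:miR858, so the groups overlapped. The log2 fold change over wild type was 0.52 for 35S:miR858 (SE 0.24, adjusted p = 0.145) and 0.20 for 35S:rMYB83 (SE 0.24, adjusted p = 0.621), with 95% intervals of -0.02 to 1.06 and -0.33 to 0.74. Without Col-0 replicate 1 these values were 0.27 and -0.05.

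CASP2 (AT3G11550, chr3:3638178-3639348, plus strand) stood at 19.99, 43.2 and 38.2 CPM in Col-0, 42.4, 52.6 and 38.7 CPM in 35S:miR858, and 33.7, 40.4 and 33.6 CPM in 35S:rMYB83. Its log2 fold changes over Col-0 were 0.40 (SE 0.24, adjusted p = 0.269) and 0.09 (SE 0.25, adjusted p = 0.847), and without Col-0 replicate 1 they were 0.13 (adjusted p = 0.567) and -0.18 (adjusted p = 0.428). Both lines overlapped Col-0, in which replicate 1 was again the low library.

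CASP4 (AT5G06200, chr5:1877134-1878324, plus strand) stood at 6.29, 15.4 and 11.8 CPM in Col-0, 18.1, 19.5 and 15.3 CPM in 35S:miR858, and 14.2, 17.5 and 13.05 CPM in 35S:rMYB83. The groups overlapped only through Col-0 replicate 2, which lay just above the lowest library of 35S:miR858. The log2 fold changes were 0.66 (SE 0.27, adjusted p = 0.106) and 0.42 (SE 0.28, adjusted p = 0.344), and those without Col-0 replicate 1 were 0.37 (adjusted p = 0.174) and 0.13 (adjusted p = 0.666). Without Col-0 replicate 2 they were 0.98 (adjusted p = 0.0309) and 0.74 (adjusted p = 0.113). CASP5 (AT5G15290, chr5:4967011-4968092, plus strand) stood at 3.88, 11.1 and 5.42 CPM in Col-0, 8.16, 8.19 and 6.46 CPM in 35S:miR858, and 6.06, 4.53 and 4.54 CPM in 35S:rMYB83. Col-0 spanned the values of both lines for this gene, and all 3 libraries of 35S:rMYB83 lay below all 3 of 35S:miR858. The log2 fold changes over Col-0 were 0.15 (SE 0.34, adjusted p = 0.79) and -0.45 (SE 0.36, adjusted p = 0.436), and that between the lines was -0.61 (SE 0.36, adjusted p = 0.415). Without Col-0 replicate 1 the values over Col-0 were -0.14 and -0.75, and without Col-0 replicate 2 they were 0.72 and 0.11, none of them called.

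Set against CASP1 in the same library, CASP2 was nearly fixed. There were 34.7 to 40.5 CASP2 counts per 100 CASP1 counts across the 9 libraries, a 1.17-fold range, while the CPM of CASP1 itself ranged 2.76-fold. The low library, Col-0 replicate 1, had 37.1 (exact 95% counting interval 31.7 to 43.2), inside that range. CASP4 held 11.7 to 15.6 counts per 100 of CASP1, a 1.34-fold range. It had 11.7 to 13.7 in Col-0, 13.1 to 15.6 in 35S:miR858 and 14.6 to 15.1 in 35S:rMYB83. The values of Col-0 and 35S:rMYB83 did not overlap, but counting intervals did. They were 11.6 to 16.1 in Col-0 replicate 2 and 11.3 to 18.7 in 35S:rMYB83 replicate 1. The share of all genes with such a gap was not computed. CASP5 varied more, from 3.89 in 35S:rMYB83 replicate 2 (2.72 to 5.40) to 9.94 in Col-0 replicate 2 (8.19 to 11.97), a 2.56-fold range. The CASP5 intervals cover counting error only, and they do not overlap.

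**Figure D3:**
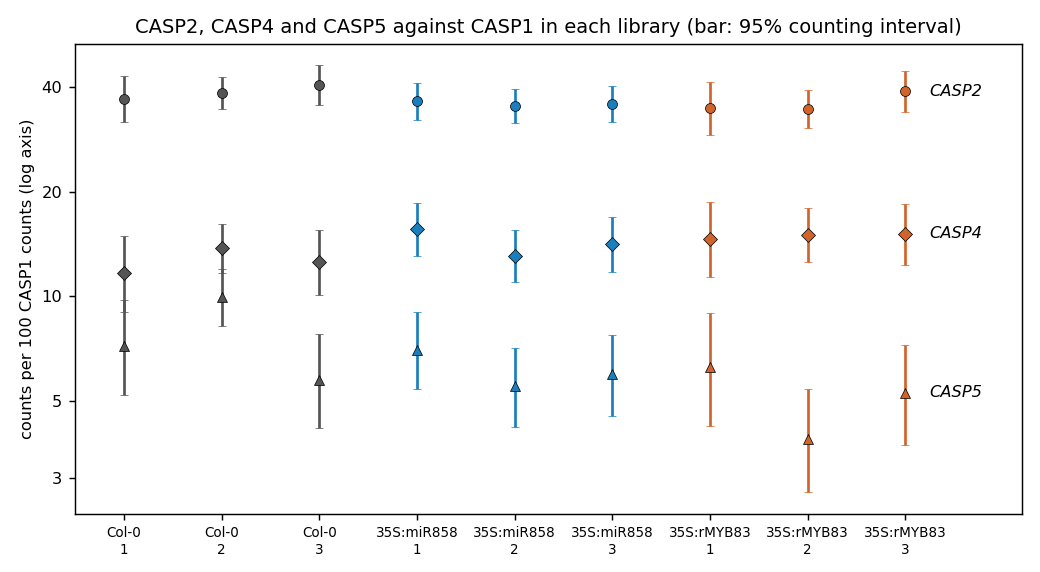
Counts of CASP2, CASP4 and CASP5 per 100 CASP1 counts (vertical log axis) in each of the 9 libraries, coloured by genotype, with exact 95% counting intervals as bars. CASP2 stays between 34.7 and 40.5, while CASP5 runs from 3.89 to 9.94.

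The CASP genes are paralogs, so reads shared between copies could in principle be lost or moved by the counting. Coding sequences were 50.4% to 79.8% identical between pairs. The most alike pair, CASP2 and CASP4, had in common no run longer than 20 bases, and CASP1 and CASP2 no run longer than 17. CASP1 also overlaps the opposite-strand locus AT2G36090 over 5.42% of its exon bases.

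MYB36 (AT5G57620, chr5:23334767-23336632, plus strand, 3 exons) is the MYB factor that activates the CASP genes, PER64 and ESB1. It stood at 16.9, 20.4 and 22.9 CPM in Col-0, 25.8, 32.8 and 26.3 CPM in 35S:miR858, and 26.1, 21.3 and 22.7 CPM in 35S:rMYB83. All libraries of 35S:miR858 lay above all of Col-0, while 35S:rMYB83 overlapped Col-0. Transcripts of MYB36 rose in 35S:miR858 (log2 fold change 0.50, SE 0.15 and adjusted p = 0.0317). The value in 35S:rMYB83 was 0.22 (SE 0.15, adjusted p = 0.359), and that between the lines was -0.28 (SE 0.15, adjusted p = 0.355).

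The MYB36 call was the weaker of the pair made in 35S:miR858. It was lost without Col-0 replicate 1 (0.39, adjusted p = 0.0808), Col-0 replicate 2 (0.51, adjusted p = 0.0726), 35S:miR858 replicate 2 (0.38, adjusted p = 0.115) or 35S:miR858 replicate 3 (0.53, adjusted p = 0.0515), and with library totals in place of TMM (0.36, adjusted p = 0.0760). Leaving out both libraries rich in green shoot markers gave 0.40 (adjusted p = 0.0588). The value stayed positive in each of these fits.

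SGN1 (AT1G61590, chr1:22723368-22726190, minus strand, 5 exons), the cytoplasmic kinase, rose in both lines. It stood at 38.5, 43.9 and 61.8 CPM in Col-0, 90.4, 104 and 89.0 CPM in 35S:miR858, and 73.4, 91.4 and 71.1 CPM in 35S:rMYB83. Every library of both lines lay above the highest Col-0 library. SGN1 rose on the log2 scale by 0.98 in 35S:miR858 (SE 0.17, 95% interval 0.60 to 1.36, adjusted p = 0.00289) and by 0.71 in 35S:rMYB83 (SE 0.17, 95% interval from 0.33, adjusted p = 0.0198).

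The SGN1 call in 35S:miR858 held in each of the 9 fits that left out 1 library, with adjusted p from 0.000981 to 0.0145, and its value without Col-0 replicate 1 was 0.84. The call in 35S:rMYB83 was lost without Col-0 replicate 2 (0.65, adjusted p = 0.0727) or 35S:rMYB83 replicate 2 (0.59, adjusted p = 0.0690). The lines differed from each other by -0.27 (SE 0.17, adjusted p = 0.457), with an interval of -0.65 to 0.11. Relative to CASP1, SGN1 had 58.7 ± 17.2 counts per 100 in the wild type, 76.6 ± 6.11 in 35S:miR858, and 78.9 ± 3.45 in the MYB83 line (SD, n = 3). The Col-0 libraries had 71.4, 39.2 and 65.5, so replicate 2 lowered the Col-0 mean. Col-0 overlapped 35S:miR858, where replicate 2 had 70.1, and lay below 35S:rMYB83 (75.6 to 82.5). Counting intervals of the latter groups overlapped, at 63.1 to 80.7 in Col-0 replicate 1 and 66.1 to 86.5 in 35S:rMYB83 replicate 1. For this ratio too, the share of all genes with such a gap was not computed.

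SGN3 (AT4G20140, chr4:10883921-10888270, plus strand, 2 exons), the receptor kinase, did not follow SGN1. It stood at 36.3, 64.7 and 61.0 CPM in Col-0, 49.6, 67.1 and 50.6 CPM in 35S:miR858, and 45.6, 63.7 and 50.8 CPM in 35S:rMYB83. In CPM the 3 groups overlapped almost fully. Per 100 CASP1 counts, SGN3 had 57.8 to 67.3 in Col-0, 42.6 to 46.7 in 35S:miR858 and 47.0 to 58.9 in 35S:rMYB83. By this ratio 35S:miR858 lay below Col-0, and the share of all genes with such a gap was not computed. Log2 fold changes over Col-0 were 0.05 (SE 0.22, adjusted p = 0.904) and -0.01 (SE 0.22, adjusted p = 0.983), with 95% intervals of -0.44 to 0.54 and -0.50 to 0.48, which leave room for a change of moderate size. An opposite-strand neighbour, AT4G20150, overlaps 7.88% of the SGN3 exon bases and had 6571 counts in all. Whether the counting used strand is not stated, so reads of the 2 genes in that stretch cannot be told apart.

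ESB1 (AT2G28670, chr2:12300265-12302358, minus strand), a dirigent-like protein needed for an unbroken strip, had almost no counts. There were 12, 8 and 3 counts in Col-0, 4, 1 and 3 in 35S:miR858, and 1, 4 and 9 in 35S:rMYB83, too few for the filter, so it was not tested. The groups overlapped, and several libraries were at or near the floor of 3 counts, so no fold is given. At this locus AT2G28671 lies on the opposite strand (chr2:12300203-12302036) and covers 84.3% of the ESB1 exon bases, and it was listed at 0 counts in all 9 libraries. The dirigent-like gene AT2G39430, by contrast, had 316 to 703 counts. The part that the overlap plays in the low ESB1 counts was not tested, so the ESB1 values are not set against those of the other genes.

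**Figure D4:**
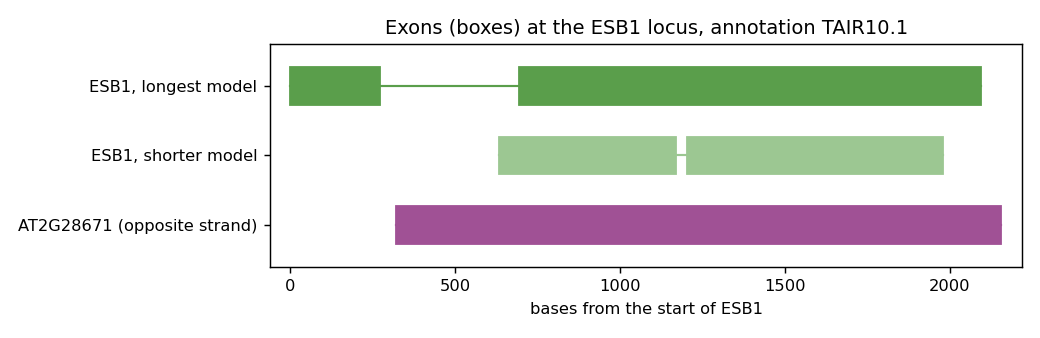
Exons (boxes) of the longer and the shorter ESB1 transcript and of AT2G28671 on the opposite strand, by distance in bases from the start of ESB1 (horizontal axis). AT2G28671 covers 84.3% of the ESB1 exon bases.

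Per kb of exon, which allows levels to be compared between genes, CASP1 was the most abundant transcript in each genotype, with 96.0 ± 33.0 CPM per kb in the wild type, 138 ± 23.9 in 35S:miR858, and 111 ± 16.9 in the MYB83 line (SD, n = 3). In Col-0, CASP2 followed at 33.96 ± 12.3 and SGN1 at 27.2 ± 6.91 CPM per kb, which did not differ beyond their spread. MYB36 at 14.5 ± 2.18, SGN3 at 12.6 ± 3.62 and CASP4 at 11.0 ± 4.51 CPM per kb also lay within each other's spread. CASP5 had 7.63 ± 4.28 CPM per kb. In 35S:miR858 and 35S:rMYB83, the mean of SGN1 came before that of CASP2, at 53.6 ± 4.85 against 44.8 ± 7.23 and at 44.5 ± 6.27 against 36.1 ± 3.90 CPM per kb. The ranges overlapped, with SGN1 from 50.4 and CASP2 up to 52.9 in 35S:miR858, and from 40.3 and up to 40.6 in 35S:rMYB83. In both lines that SGN1 value came from replicate 3 and that CASP2 value from replicate 2. The genes were not set against each other within each library, so a change of order was not tested.

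Over the 9 libraries, log2 CPM of CASP1 correlated with that of CASP2 at Pearson r = 0.98 and CASP4 at 0.97, and after removal of the genotype means at 0.98 and 0.97. With SGN3 the value was 0.81 and 0.94, with SGN1 0.75 and 0.65, and with MYB36 0.78 and 0.62. CASP5 and SGN1 were the least alike pair, at 0.13. These are descriptions over 9 libraries that share their scaling, and the low Col-0 replicate 1 bears on all of them. The loci most like the mean CASP profile, among 19320 with at least 1 CPM, were GSTF8 (r = 0.98), a glutathione transferase gene, ATPMEPCRD (0.98), annotated as a pectin methylesterase inhibitor family member, and PATL2 (0.98), a patellin gene. Next came the peroxidase gene AT2G18980 (0.97), IAR4 (0.96) and the kinase family gene AT3G24715 (0.95). None of these 6 was on the list of 28 partners described next, and 1 of the 20 most alike was. That partner was the dirigent-like gene AT3G24020, at rank 16 of 19320, and AT2G39430 and RCI3 ranked 58 and 59. Other partners lay far down, such as AT4G34600 at rank 18461. How many partners a list of this size would place so high by chance was not computed.

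Known partners of the Casparian strip genes were described from a list of 28 genes, of which 27 were tested. In 35S:miR858 against Col-0, 10 rose, 4 fell and 13 did not pass, with a median log2 fold change of 0.33. In 35S:rMYB83 against Col-0, 5 rose, 4 fell and 18 did not pass, with a median of 0.32. The background shares are those given above for the 8 Casparian strip genes, and nothing particular to the list is read from these counts. The count of 10 was 6 without Col-0 replicate 3, 35S:miR858 replicate 1 or 35S:miR858 replicate 2, and the count of 5 was 10 with a green shoot covariate. The partner calls held in all 9 fits that left out 1 library for 10 of 14 genes in 35S:miR858 and 7 of 9 in 35S:rMYB83.

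Of 10 tested genes for enzymes and dirigent-like proteins of lignin polymerisation, 7 rose in 35S:miR858 and none fell, where 11.6% of all genes were called higher, and the median log2 fold change was 0.83. LAC3, a laccase gene of this list, lay the other way, at -0.43 (adjusted p = 0.109) in 35S:miR858 and -0.52 (adjusted p = 0.0771) in 35S:rMYB83. Without Col-0 replicate 1 it was called lower in both (-0.61, adjusted p = 0.00858, and -0.70, adjusted p = 0.00613). PER64, the peroxidase localised to the strip, stood at 40.4, 61.9 and 66.4 CPM in Col-0, 94.4, 133 and 99.3 CPM in 35S:miR858, and 83.3, 103 and 76.8 CPM in 35S:rMYB83. No library of either line fell to the Col-0 level. The log2 fold changes were 0.95 (SE 0.20, adjusted p = 0.00742) and 0.64 (SE 0.20, adjusted p = 0.0575).

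The dirigent-like gene AT2G39430 stood at 27.2, 50.3 and 49.5 CPM in Col-0 and 72.3, 88.3 and 75.6 CPM in 35S:miR858, groups that did not overlap, and rose by 0.90 (SE 0.21, adjusted p = 0.0123). In 35S:rMYB83 its value was 0.52 (SE 0.21, adjusted p = 0.128). AT3G55230, of the same family, rose by 1.07 in 35S:miR858 (adjusted p = 0.00983). The peroxidase genes PRX72 and AT4G11290 rose in both lines, PRX72 by 0.95 and 1.02 (adjusted p = 0.00903 and 0.00957) and AT4G11290 by 0.81 and 0.54 (adjusted p = 0.000628 and 0.00789). The 35S:miR858 calls of these 5 genes, PER64 included, held without any 1 library, as did those of PRX72 and AT4G11290 in 35S:rMYB83.

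Further calls of this group in 35S:miR858 were less firm. RCI3, a peroxidase gene, rose by 0.57 (adjusted p = 0.0238), a call lost without Col-0 replicate 1 or 3 or 35S:miR858 replicate 1 or 2, with adjusted p from 0.0508 to 0.0819 in those fits. The dirigent-like gene AT3G24020 rose by 0.85 (adjusted p = 0.0441), a call lost in 7 of 9 such fits, with adjusted p up to 0.130. Of the fits that kept it, 1 lacked Col-0 replicate 1 and the other Col-0 replicate 2. The opposite-strand locus AT3G04615 overlaps 86.8% of the AT3G24020 exon bases, but it is not among the loci counted in the deposited files. In 35S:rMYB83, 2 of the 10 rose, PRX72 and AT4G11290. The dirigent-like gene AT1G07730 had 0 counts in all libraries, and AT1G07740 on the same strand covers 99.4% of it.

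Among transcription factors, the endodermal regulators SHR and SCR were modestly higher. SHR, which moves from the stele to set endodermal fate, stood at 38.8, 31.9 and 27.1 CPM in Col-0, 46.7, 44.2 and 45.8 CPM in 35S:miR858, and 46.9, 44.5 and 41.1 CPM in 35S:rMYB83. It rose by 0.48 (SE 0.13, adjusted p = 0.0195) and 0.43 (SE 0.13, adjusted p = 0.0427). SCR, its partner in the endodermis, rose in 35S:miR858 by 0.42 (SE 0.12, adjusted p = 0.0237), and its value in 35S:rMYB83 was 0.32 (adjusted p = 0.0882). In Col-0 replicate 1, where the CASP genes were lowest, SHR and SCR were the highest of the Col-0 libraries.

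The SHR and SCR calls in 35S:miR858 were lost without Col-0 replicate 2 or 3 or any library of 35S:miR858, with adjusted p from 0.0538 to 0.0681 for SHR and from 0.0708 to 0.0825 for SCR, and also with library totals. SHR in 35S:rMYB83 kept its call only without Col-0 replicate 1, with adjusted p up to 0.120 in the other 8 fits. JKD, a zinc finger protein that works with SHR and SCR, stood at 47.4, 49.5 and 50.9 CPM in Col-0, 69.3, 64.8 and 62.0 CPM in 35S:miR858, and 45.8, 49.7 and 50.2 CPM in 35S:rMYB83. It rose in 35S:miR858 by 0.41 (SE 0.08, adjusted p = 0.00560), a call that held without any 1 library.

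MYB68, a relative of MYB36, moved the other way. It stood at 47.2, 52.1 and 57.1 CPM in Col-0, 35.3, 31.8 and 30.8 CPM in 35S:miR858, and 37.5, 45.3 and 32.1 CPM in 35S:rMYB83. It fell by 0.68 on the log2 scale in 35S:miR858 (SE 0.13, adjusted p = 0.00516), in every fit that left out 1 library. In 35S:rMYB83 it fell by 0.44 (SE 0.13, adjusted p = 0.0474), a call lost in 6 of 9 such fits, without Col-0 replicate 2 or 3, 35S:miR858 replicate 2 or 3, or 35S:rMYB83 replicate 1 or 3, with adjusted p up to 0.155. MYB84 and MYB87, whose alignments to miR858a had lower penalties than that of MYB68, did not pass. Their values in 35S:miR858 were -0.14 (adjusted p = 0.673) and -1.04 (adjusted p = 0.174). MYB87 had few counts, 29, 19 and 18 in Col-0, 13, 7 and 6 in 35S:miR858, and 2, 13 and 3 in 35S:rMYB83. Its SE in 35S:miR858 was 0.52, so a fall as large as that of MYB68 is not excluded. Both lines lay below Col-0 for MYB87 without overlap, while MYB84 overlapped Col-0 in 35S:miR858. Whether miR858 acts on these transcripts was not tested.

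**Figure D5:**
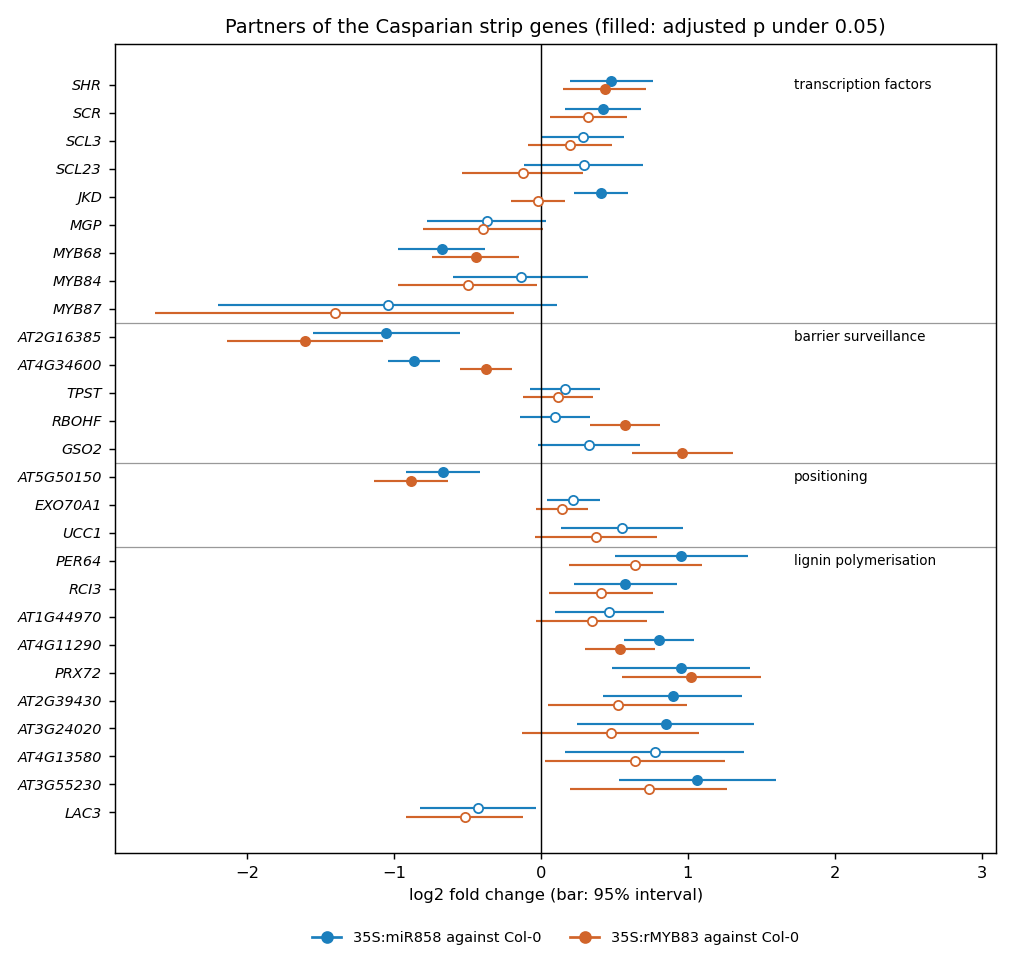
Log2 fold change against Col-0 (horizontal axis) of the 27 tested partners in 35S:miR858 (blue) and 35S:rMYB83 (orange), grouped by role, with 95% intervals as bars. Filled points have an adjusted p under 0.05. Most lignin polymerisation genes lie to the right, and AT2G16385, AT4G34600 and AT5G50150 lie to the left in both lines.

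In the barrier surveillance group, the partners CIF1 (AT2G16385) and CIF2 (AT4G34600) fell in both lines. The reference does not carry these names. It annotates AT2G16385 as an aspartate carbamoyltransferase and AT4G34600 as an uncharacterized protein, and these annotations were not checked. AT4G34600 stood at 102, 98.2 and 102 CPM in Col-0, 57.0, 54.8 and 54.1 CPM in 35S:miR858, and 81.0, 71.6 and 80.7 CPM in 35S:rMYB83, so the 3 genotypes did not overlap. It fell by 0.86 (SE 0.08, adjusted p = 9.4e-05) and by 0.37 (SE 0.08, adjusted p = 0.0108). AT2G16385 fell by 1.05 (SE 0.22, adjusted p = 0.00754) and by 1.60 (SE 0.24, adjusted p = 0.00192). All 4 calls held without any 1 library.

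GSO2, a receptor kinase gene closely related to SGN3, stood at 14.1, 12.7 and 17.4 CPM in Col-0, 18.7, 16.8 and 19.7 CPM in 35S:miR858, and 30.5, 31.9 and 23.6 CPM in 35S:rMYB83. It rose in 35S:rMYB83 by 0.96 (SE 0.15, adjusted p = 0.00284), and its value in 35S:miR858 was 0.33 (adjusted p = 0.157). RBOHF, the oxidase that makes reactive oxygen for lignin polymerisation, rose in 35S:rMYB83 by 0.57 (SE 0.11, adjusted p = 0.00618), with 0.10 (adjusted p = 0.558) in 35S:miR858. Both 35S:rMYB83 calls held without any 1 library. TPST, the enzyme that adds sulphate to peptide tyrosines, did not pass, at 0.16 (adjusted p = 0.309) and 0.12 (adjusted p = 0.517).

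Of the positioning group, AT5G50150, annotated as a DUF239 protein, fell by 0.67 (SE 0.11, adjusted p = 0.00226) and by 0.89 (SE 0.11, adjusted p = 0.000951). The exocyst subunit gene EXO70A1 had values of 0.22 (adjusted p = 0.0700) and 0.14 (adjusted p = 0.261). The copper protein gene UCC1 had values of 0.55 (adjusted p = 0.0541) and 0.37 (adjusted p = 0.209). Neither passed in either line.

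Suberin is the second barrier of the endodermis, laid down after the Casparian strip, and several of its genes fell. Of 11 tested, 5 fell in 35S:miR858 and 4 in 35S:rMYB83, where 13.5% and 9.73% of all genes were called lower, and without Col-0 replicate 1 these counts were 8 and 9. edgeR called none higher in either line, with 0 higher at an unadjusted p under 0.05 and 0 higher with DESeq2. The list medians were -0.57 and -0.68. FAR4, a fatty acyl reductase that makes suberin alcohols, stood at 67.0, 134 and 85.1 CPM in Col-0, 18.2, 23.8 and 18.2 CPM in 35S:miR858, and 32.2, 36.1 and 22.8 CPM in 35S:rMYB83. It fell by 2.25 (SE 0.27, adjusted p = 0.000340) and by 1.65 (SE 0.26, adjusted p = 0.00248). FAR1, of the same family, fell by 1.78 (adjusted p = 0.00124) and by 1.69 (adjusted p = 0.00255). These 4 calls held without any 1 library. KCS2, an enzyme that lengthens fatty acids, fell by 1.102 in 35S:miR858 (adjusted p = 0.00693) and by 1.07 in 35S:rMYB83 (adjusted p = 0.0118), and 63.6% of its exon bases are overlapped by opposite-strand loci. FAR5, also a fatty acyl reductase gene, fell by 1.08 in 35S:miR858 (adjusted p = 0.00365) and by 0.68 in 35S:rMYB83 (adjusted p = 0.0421). Its call in 35S:rMYB83 was lost in 6 of 9 fits that left out 1 library, those that kept it lacking Col-0 replicate 1, 35S:miR858 replicate 3 or 35S:rMYB83 replicate 2, with adjusted p up to 0.145.

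Markers of other cell types were read beside these values. In Col-0 replicate 1 the 5 xylem markers summed to 89.4 CPM and the 3 root hair markers to 64.2 CPM, the lowest sums of the 9 libraries. The root hair sum of 35S:miR858 replicate 3 was close, at 66.6 CPM. Unlike the tested Casparian strip genes, not every marker of these lists was lowest in Col-0 replicate 1. Over the libraries of each genotype the xylem sum ran from 89.4 to 178 CPM in Col-0, 153 to 165 CPM in 35S:miR858 and 148 to 198 CPM in 35S:rMYB83. None of the 5 xylem, 3 root hair, 1 cortex, 3 dividing cell or 10 green shoot markers passed edgeR or DESeq2 in any comparison. At an unadjusted p under 0.05, XCP1 and the cortex gene AT1G62500 were higher in 35S:miR858 and CYCA1;1 was lower there, and CYCA1;1 was higher in 35S:rMYB83 than in 35S:miR858. The phloem transporter gene SUC2 fell by 1.12 in 35S:miR858 (adjusted p = 0.00227) and by 1.05 in 35S:rMYB83 (adjusted p = 0.00524), while APL, the other phloem marker, did not pass. The part of a changed makeup of cell types in the values of the Casparian strip genes was not tested.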

How the data were processed

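Root mRNA libraries (3 per genotype) were taken as deposited: per the labels' protocols, mRNA was isolated with magnetic beads and made into libraries with a kit. Per the submitters' processing notes, FastQC, Trimmomatic, TopHat2 2.0.14, HTSeq and build TAIR10 were used. Other versions, settings and strand handling are not stated in the sources used here. The deposited files hold the authors' whole-number counts per gene. Lines for reads outside genes (3.84% to 6.47% of gene counts) and ambiguous reads (1.83% to 2.22%) were left out. Of 28775 loci, 28009 matched TAIR10.1 (RefSeq), the source of names, coordinates and sequences.

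Groups came from the genotype in the labels. The count test was edgeR 4.0.16 under R 4.3.3 (quasi-likelihood F test, filterByExpr, TMM, all 9 libraries in 1 fit, 19496 genes, Benjamini-Hochberg). The SE is the size of the log2 fold change over the square root of F. Correlations used log2 CPM with a prior count of 2. The procedure was tested on simulated data. Replicates differed by at least 6.49 times counting error (chi-square per degree of freedom), so none was counted as a duplicate. Intervals on counts are exact (Clopper-Pearson) at 95%, and these and the floor of 3 counts cover counting error only. Alternatives were other scaling (size factors, library totals), no filter, DESeq2 1.42.0, 2-group fits, a replicate block, a green shoot covariate and left-out libraries.

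The members and lists were chosen with earlier results of these data known. The Casparian strip genes and 13 partners (SHR, SCR, MYB68, AT2G16385, AT4G34600, TPST, RBOHF, GSO2, AT5G50150, EXO70A1, UCC1, PER64, AT2G39430) were named whatever their values, except 1 Casparian strip gene that is counted in the totals and not reported singly here. Other partners were named where they passed, as were up to 3 genes per comparison of the suberin and marker lists, and the 6 loci most like the mean CASP profile. MYB84, MYB87, LAC3, AT1G07730, XCP1, AT1G62500, CYCA1;1 and APL fall outside this rule and were named after their values were seen.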

Additional observations from a re-analysis of the deposited data

Results flagged for a closer look

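The genes below differed between the overexpression lines in a direct test, 35S:rMYB83 against 35S:miR858, with edgeR's quasi-likelihood F test. Only the 8 tested Casparian strip genes and their 27 tested partners were searched for this section. All 3 are partners, none of the 8 Casparian strip genes did, and 4.05% of all genes were called in this comparison. Nothing particular to the partners is read from this count. JKD was lower in 35S:rMYB83 with a log2 value of -0.43 (SE 0.08, adjusted p = 0.0201), with all 3 libraries below those of 35S:miR858. AT4G34600 was higher by 0.49 (SE 0.08, adjusted p = 0.00867), in 3 of 3 libraries. RBOHF was higher by 0.47 (SE 0.11, adjusted p = 0.0395), in 3 of 3 libraries. AT4G34600 lost its call without 35S:miR858 replicate 2 (adjusted p = 0.0515). JKD lost it without 35S:miR858 replicate 1 or 2 or 35S:rMYB83 replicate 1 or 2 (adjusted p up to 0.0879). RBOHF lost it in 7 of 9 fits (adjusted p up to 0.121), and kept it when Col-0 replicate 1 or 2 was the library left out.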

How the results depend on the processing

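The count of Casparian strip genes higher in 35S:miR858 than in Col-0, 2 in the reported fit, was 1 with library totals, 5 with the green shoot covariate and 1 with both green-rich libraries out, and 1 to 3 when 1 library was left out. In 35S:rMYB83 the count of 1 became 2 with the replicate block and 2 with the green shoot covariate, and 0 to 1 when 1 library was left out. With that covariate CASP1 (adjusted p = 0.0439) and CASP4 (0.0314) were among those that passed in 35S:miR858. The cause of these changes was not tested. Suberin genes lower in 35S:rMYB83, 4 in the reported fit, were 7 with DESeq2, 8 with library totals, the replicate block or both green-rich libraries out. None of the 8 Casparian strip genes, 27 partners or 11 suberin genes tested was called in opposite directions under the alternatives run for them, and DESeq2 was the only alternative run for marker genes. Over all genes, the calls in 35S:miR858 against Col-0 (4900) ran from 3468 to 5146 when 1 library was left out. Under the other alternatives they ran from 4439 to 5912. In 35S:rMYB83 against Col-0 (3203) these ranges were 2087 to 3791 and 2711 to 3613. Between the lines (789) the calls ran from 322 to 992 when 1 library was left out, and DESeq2 called 1268. Changes in the list counts are therefore not read as particular to the lists.

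Replicate numbers are shared by the groups, but same-numbered libraries deviated together with r from -0.26 to 0.55, so the numbers were not taken as pairing. With the replicate block SGN1 and MYB36 kept their calls, and 3 Casparian strip genes were higher in 35S:miR858 and 2 in 35S:rMYB83. ESB1, with 1 to 12 counts per library, was too low to test.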
